A study of Homo sapiens with 3 samples.

Results

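Cholesterol 25-hydroxylase (CH25H), apolipoprotein E (APOE) and genes of the liver X receptor (LXR) pathway were followed in 2 clones of U87 glioma cells. The list holds 8 genes: CH25H, APOE, LPCAT3, ABCA1, ABCG1, NR1H2, NR1H3 and MYLIP. They were selected on the clone ratio of these same arrays, because CH25H, APOE and LPCAT3 were higher in the clone with the wild-type receptor, so the ratio of the clones is given as a description with no test. Of the 8 genes, 7 had a probe that could be named by its RefSeq transcript and 6 were above background in all 6 channels (by the scanner software's own mark, well above), among 15340 such genes of 25002 named ones. No probe carried a transcript that matched NR1H2, and ABCG1 was near background.

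Liver X receptors are nuclear receptors that pair with retinoid X receptors and bind DNA at repeated half-sites. Oxysterols, which are oxidized forms of cholesterol, bind to them and switch on genes that export cholesterol, carry it on lipoproteins and reshape membrane lipids. CH25H makes one of these oxysterols, 25-hydroxycholesterol, and is also known as a gene induced by interferon. In the brain APOE is the main protein of the lipoproteins that carry cholesterol between cells.

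U87WT 5 and U87Mut 5 are clones of the human glioma line U87, each 1 transfected line selected in G418. U87WT carries the insulin-like growth factor 1 receptor (IGF1R) fused to GFP, and U87Mut carries the same fusion with 3 lysines replaced by arginines, which the study uses as a receptor that does not reach the nucleus. Both clones were kept for 24 h in FBS-free medium, in medium with 50 nM IGF1, or in medium with IGF1 and 0.5 μM OSI906. OSI906 is an inhibitor of the kinase of IGF1R and of the insulin receptor. Per the methods of the study it was added 1 h before IGF1 and stayed during the IGF1 treatment. RNA of U87WT (Cy5) and RNA of U87Mut (Cy3) were hybridized together on 3 2-color Agilent arrays, 1 per condition, without a dye swap and without a replicate. Clone and dye therefore cannot be told apart, nor can condition and array, and no p value can be given. A log2 difference of over 0.5 is called past the limit below, and this is a call by size only.

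The array precision sets what can be read from the values. The SD of a single log2 ratio, estimated over 15340 genes from the difference of a pair of arrays, was 0.15 for the FBS-free and OSI906 arrays and 0.18 when the IGF1 array was one of the pair. Any true response of the ratio to the treatment is part of these SDs. A patch of 27 spots with a very bright Cy5 background lay on the IGF1 array and held no spot of the listed genes, and there was none on the other arrays. Spots of a repeated probe also differed more there, with an SD of the log2 ratio of 0.18 against 0.05 and 0.06 on the FBS-free and OSI906 arrays. The upper quartile of Cy3 brightness was 136 on the IGF1 array and 187 and 157 on the others, so the raw U87Mut values below are compared between arrays only after normalization. Transgene expression was not checked, since it is not known whether the IGF1R probe lies in the transfected sequence. Its log2 ratio was 0.07, 0.23 and 0.09 in FBS-free medium, IGF1 and IGF1 with OSI906.

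The 250 bases before the RefSeq start of CH25H, APOE and LPCAT3, which led to the choice of the genes, and of ABCA1, the single listed gene with a motif match, are shown because LXR acts at such regions (RefSeq, GRCh38.p14, 5′ to 3′ on the strand of the gene, motif matches in capitals).
CH25H (chr10:89207318-89207567, minus strand): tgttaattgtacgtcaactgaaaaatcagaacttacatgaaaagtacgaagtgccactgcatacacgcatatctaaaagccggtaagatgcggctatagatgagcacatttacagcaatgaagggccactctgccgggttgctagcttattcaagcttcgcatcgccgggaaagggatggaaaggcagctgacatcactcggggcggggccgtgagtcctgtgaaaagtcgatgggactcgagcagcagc
APOE (chr19:44905546-44905795, plus strand): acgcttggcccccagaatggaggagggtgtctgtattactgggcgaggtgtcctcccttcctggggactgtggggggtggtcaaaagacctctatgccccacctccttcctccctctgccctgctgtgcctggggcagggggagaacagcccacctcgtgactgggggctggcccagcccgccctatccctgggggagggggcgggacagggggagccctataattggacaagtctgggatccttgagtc
LPCAT3 (chr12:7018477-7018726, minus strand): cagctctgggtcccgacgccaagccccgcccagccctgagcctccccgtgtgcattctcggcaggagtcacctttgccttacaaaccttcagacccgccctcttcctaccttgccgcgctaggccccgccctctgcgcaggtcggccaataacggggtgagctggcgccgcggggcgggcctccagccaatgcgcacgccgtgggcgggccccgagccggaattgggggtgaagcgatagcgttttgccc
ABCA1 (chr9:104928156-104928405, minus strand): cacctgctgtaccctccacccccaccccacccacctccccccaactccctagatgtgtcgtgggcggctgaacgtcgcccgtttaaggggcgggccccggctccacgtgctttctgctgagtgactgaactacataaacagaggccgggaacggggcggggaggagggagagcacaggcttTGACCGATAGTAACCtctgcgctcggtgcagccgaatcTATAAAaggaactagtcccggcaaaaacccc
Both strands were searched for the relaxed LXR direct repeat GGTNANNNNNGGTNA, the strict repeat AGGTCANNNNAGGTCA, which is a case of the relaxed one, the interferon response core GAAANNGAAA and TATAAA. ABCA1 held the relaxed repeat on the strand opposite to the printed one, which reads TGACCGATAGTAACC there, at -69 to -55 from the start, and TATAAA at -31 to -26. The relaxed repeat stood in 0.533% of 35116 RefSeq promoters of this length, the strict one in 0.0142%, the interferon core in 3.02% and TATAAA in 10.7%. The windows of the 6 other listed genes in the table, including 3 starts of APOE and 4 of NR1H3, held no match, which says only that these letters are not in these windows. No window was at hand for ABCG1. The CH25H window was 50.0% GC, those of APOE (first start), LPCAT3 and ABCA1 were 64.8, 69.2 and 61.6%, and the median promoter was 58.0%.

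CH25H, the enzyme that makes 25-hydroxycholesterol, was bright in both clones and on every array. Its median spot brightness in U87WT was 6770 in FBS-free medium, 3786 with IGF1 and 5412 with IGF1 and OSI906, and in U87Mut it was 1934, 823.5 and 1474, against a local background of 20 to 23. Its normalized log2 levels were 12.56, 11.66 and 12.42 in U87WT and 10.78, 10.12 and 10.74 in U87Mut. After normalization its log2 ratio between U87WT and U87Mut was 1.78, 1.55 and 1.68, which is 3.44-, 2.92- and 3.20-fold. These ratios stood 17th, 35th and 22nd from the highest of 15340 genes.

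APOE had the highest ratio of the listed genes in FBS-free medium and with OSI906. Its brightness in U87WT was 2117, 1063 and 2151 in FBS-free medium, IGF1 and IGF1 with OSI906. In U87Mut it was 304, 170.5 and 242.5. The log2 ratios were 2.74, 1.95 and 2.92, or 6.69-, 3.86- and 7.56-fold, and ranked 3rd, 12th and 2nd of all genes. The ratio on the IGF1 array was thus the lowest of the 3. On that array APOE stood above CH25H here, but with the background fitted on all spots it was 1.00 against 1.19 for CH25H, and in the deposited ratios 1.02 against 1.17.

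NR1H3 encodes LXR alpha, the receptor itself. It gave 3256, 2262 and 2421 in U87WT and 1453, 766.5 and 1123 in U87Mut, in the same order of conditions. The log2 ratios were 1.18, 0.94 and 0.96 (2.26-, 1.92- and 1.94-fold).

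ABCA1 and ABCG1 are transporters that move cholesterol out of the cell. The brighter ABCA1 probe read 5404, 4570 and 5718 in U87WT and 2137, 1287 and 2736 in U87Mut, with log2 ratios of 1.32, 1.16 and 0.84. The less bright ABCA1 probe, at 492, 332.5 and 722 in U87WT and 225, 171 and 319 in U87Mut, gave 1.09, 0.44 and 1.04, so the probes differed by 0.72 on the IGF1 array and the dimmer one was within the limit there. Over all genes with several probes the pooled SD between probes of one gene was 0.21 to 0.23 on each array. ABCG1 read 26, 27 and 30 in U87WT and 25.5, 25 and 28.5 in U87Mut, close to its background, and was well above background only in U87WT with OSI906. There the normalized log2 ratio was 0.09, but U87Mut, at 28.5 over a local background of 24, was not well above background. With the local background subtracted and no normalization, U87WT over U87Mut was 1.78-fold on that array. The SD of 0.15 of a single ratio came from genes well above background in every channel, so it does not apply to ABCG1. Whether the clones differ in ABCG1 therefore cannot be read from this ratio, and no ratio is given for the other conditions.

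LPCAT3 places polyunsaturated fatty acids into membrane phospholipids, and MYLIP is a ubiquitin ligase that marks lipoprotein receptors for degradation. LPCAT3 read 7638, 6113 and 6320 in U87WT and 3989, 1776 and 2799 in U87Mut, with log2 ratios of 0.89, 1.09 and 0.95. MYLIP had normalized log2 levels of 8.22, 7.75 and 7.85 in U87WT and 7.18, 7.05 and 7.30 in U87Mut, with log2 ratios of 1.04, 0.70 and 0.56. Its ratio on the IGF1 array was 0.13 when the background was fitted on all spots. Both were higher in U87WT on every array, as were 28.6% of all genes. MYLIP had the smallest mean ratio of the 6 genes here, but this place depended on the processing. With an offset of 0 in the background correction, in place of 50, its log2 ratios were 1.345, 1.017 and 0.774. Those of LPCAT3 were then 0.906, 1.091 and 0.955, with a smaller mean. With the median in place of loess MYLIP stayed the smallest by mean (0.824, 0.923 and 0.598).

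**Figure D1:**
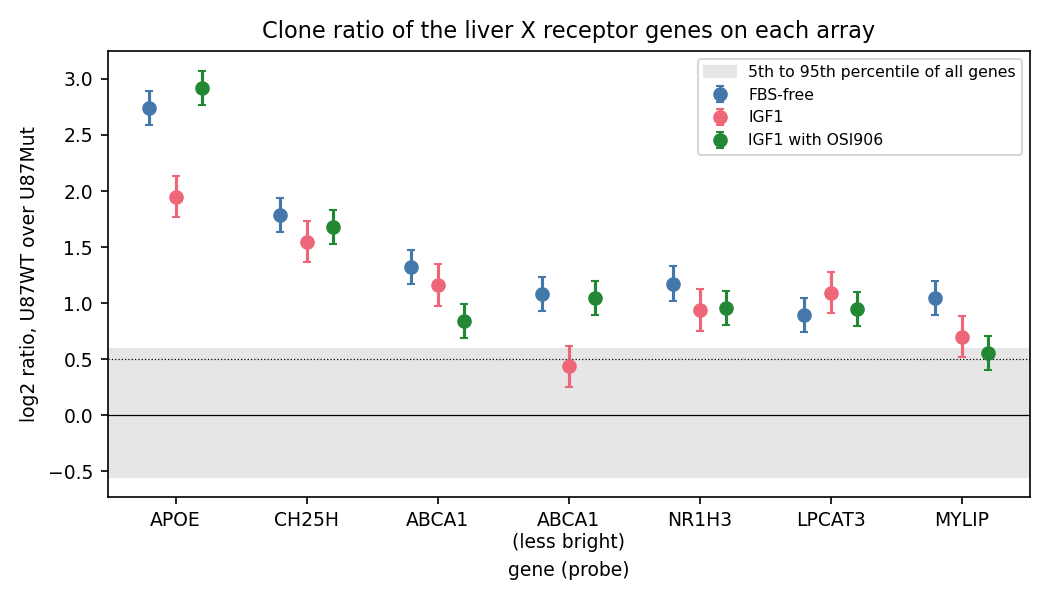
Log2 ratio of U87WT over U87Mut for each gene (both probes of ABCA1) on the 3 arrays, colored by condition. Bars are ± 1 SD of a single log2 ratio over 15340 genes, 0.15, and for the IGF1 array 0.18 from its pair with the FBS-free array. Each SD is an average over its pair, so 0.18 may be too small for the IGF1 array alone. The gray band spans the lowest 5th and the highest 95th percentile of all genes over the arrays, and the dotted line is the limit of 0.5. APOE lies highest, with its lowest value on the IGF1 array, and the less bright ABCA1 probe lies within the band on that array.

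All 6 genes were past 0.5 in the direction of U87WT on each array, where 6.37% of all genes were so in FBS-free medium, 7.33% with IGF1 and 5.74% with OSI906. On every array together 3.09% of genes were. The choice used these ratios, so nothing is read from the counts. By the mean of the 3 arrays the order was APOE (2.54), CH25H (1.67), ABCA1 (1.11), NR1H3 (1.02), LPCAT3 (0.98) and MYLIP (0.77). The values of APOE lay above all those of CH25H, and those of CH25H above all those of ABCA1, but neither held with the background fitted on all spots or in the deposited ratios. There the IGF1 value of APOE was below every value of CH25H, and that of CH25H (1.19 and 1.17) below the FBS-free value of ABCA1 (1.32 and 1.34). ABCA1, NR1H3, LPCAT3 and MYLIP overlapped with their neighbors in this order, so they cannot be ranked.

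The response to IGF1 within a clone was not used to choose the genes. It was taken from the level of each channel after normalization between arrays. In U87WT the IGF1 level was lower than the FBS-free level for all 6 genes, and CH25H, APOE and NR1H3 were past the limit. In U87Mut all 6 were lower as well, and CH25H and LPCAT3 were past it. Over all genes 2.72% were lower past the limit in U87WT and 1.68% in U87Mut. The median difference of the 6 genes was -0.53 in U87WT and -0.29 in U87Mut, against 0.01 and -0.03 over all genes. Genes within 0.5 of the mean level of each had medians between 0.01 and 0.03 in U87WT and between -0.05 and -0.03 in U87Mut. With medians this near 0, a lower level of any size was common among all genes. Both clones of a condition share an array and were read together, so they are not independent of each other.

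CH25H went from a log2 level of 12.56 to 11.66 in U87WT and from 10.78 to 10.12 in U87Mut, differences of -0.90 and -0.66. The SD of this difference over all genes was 0.26 in U87WT and 0.21 in U87Mut, and over the 1110 genes within 0.5 of the level of CH25H it was 0.36 and 0.31. These 2 differences stood 61st and 81st from the lowest of 15340 genes. Of the listed genes CH25H was the single one past the limit in both clones, and with the background fitted on all spots its U87Mut difference was -0.49. With the median in place of loess APOE was past it in both clones too (-0.70 and -0.54), and without normalization between arrays NR1H3 (-0.83 and -0.59) and LPCAT3 (-0.64 and -0.84) were.

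APOE went from 10.95 to 9.93 in U87WT, a difference of -1.02 that stood 38th from the lowest. In U87Mut it went from 8.20 to 7.98, a difference of -0.23 that stood 2172nd. The clone ratio of APOE was therefore 0.79 lower (log2) with IGF1 than in FBS-free medium, and it was the single listed gene past the limit in that difference, as were 2.27% of all genes in this direction. The difference between the clones in this response was not tested, and it was -0.16 when arrays were normalized by their median in place of loess and -1.72 with the background fitted on all spots.

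LPCAT3 was lower with IGF1 by 0.39 in U87WT and by 0.59 in U87Mut (log2), and NR1H3 by 0.59 and 0.35 (in U87WT by 0.23 with the median in place of loess). MYLIP was lower by 0.47 and 0.13. The brighter ABCA1 probe was lower by 0.32 and 0.16, values inside the 5th to 95th percentile of all genes. With the median in place of loess ABCA1 in U87WT was 0.05 higher instead.

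With OSI906 added, each of the 6 genes lay above its IGF1 level in both clones. In U87WT CH25H, APOE and ABCA1 were past the limit, as were 3.73% of all genes, and in U87Mut CH25H and ABCA1 were, as were 2.07%. The medians of the 6 genes were 0.45 and 0.38. Those over all genes were -0.02 and 0.02, so a higher level of any size was common. This comparison and the previous one share the IGF1 array, so a level read too low on that array gives both, and each is given with its own values only.

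APOE in U87WT was 1.22 higher (log2) with OSI906 than with IGF1 alone, and in U87Mut 0.25 higher (-0.02 with the background fitted on all spots). Its clone ratio was 0.97 higher with OSI906 (1.92 with the background fitted on all spots), and it was again the single listed gene past the limit, as were 2.47% of all genes in this direction. CH25H was 0.76 higher in U87WT and 0.63 higher in U87Mut. ABCA1 was 0.57 higher in U87WT (0.41 with the median in place of loess) and 0.89 higher in U87Mut, and its less bright probe 1.24 and 0.63 higher. LPCAT3 (0.29 and 0.44), NR1H3 (0.34 and 0.32) and MYLIP (0.10 and 0.24) were within the limit.

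The levels with OSI906 and in FBS-free medium, which do not involve the IGF1 array, were close for most of the genes. CH25H differed by -0.14 in U87WT and -0.03 in U87Mut, APOE by 0.20 and 0.02, LPCAT3 by -0.09 and -0.15, and NR1H3 by -0.25 and -0.03. ABCA1 was the exception: it was 0.73 higher with OSI906 in U87Mut, which stood 31st of 15340 genes, and 0.25 higher in U87WT. The less bright ABCA1 probe was 0.71 and 0.67 higher in U87Mut and U87WT. In U87Mut 0.684% of all genes were past the limit in this direction. MYLIP differed by -0.37 in U87WT and 0.11 in U87Mut.

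**Figure D2:**
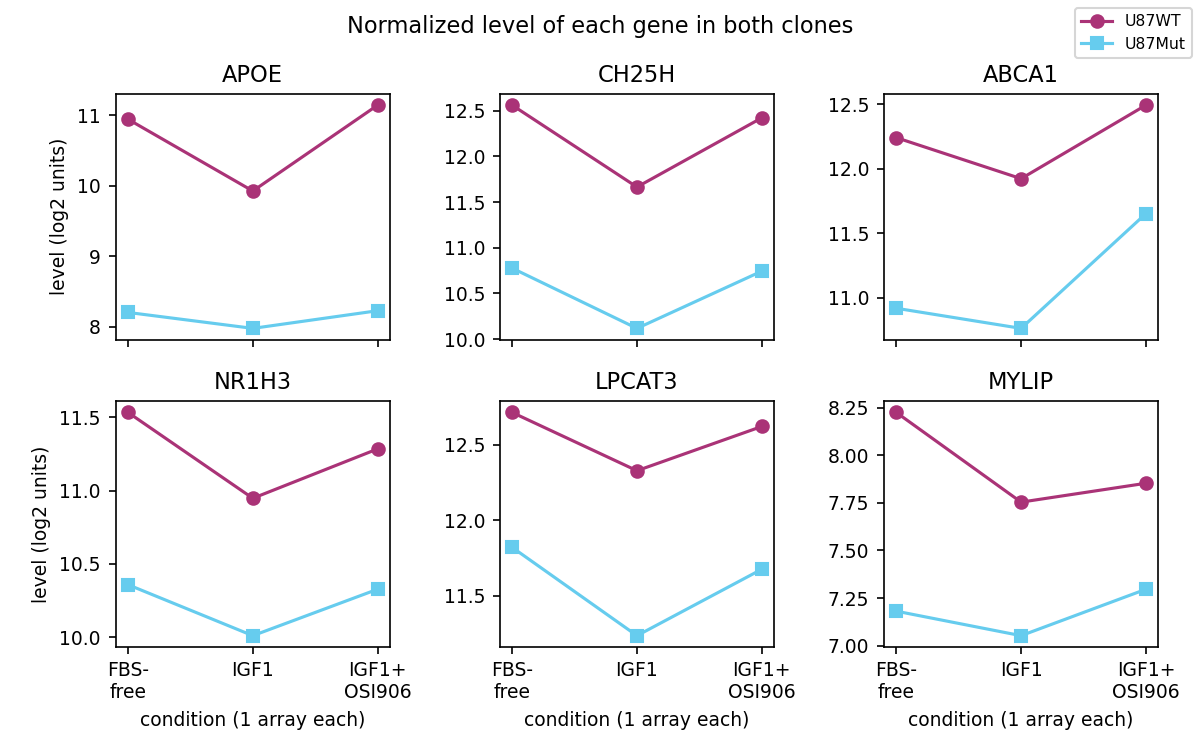
Normalized level (log2 units) of each gene in U87WT (circles) and U87Mut (squares) in the 3 conditions, 1 array each, with an axis of its own for each gene. U87WT lies above U87Mut in every panel, and 28.6% of all genes were higher in U87WT on every array. The IGF1 level is the lowest of its line in all 12 lines, which share 1 IGF1 array. ABCA1 in U87Mut is higher with OSI906 than in FBS-free medium.

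**Figure D3:**
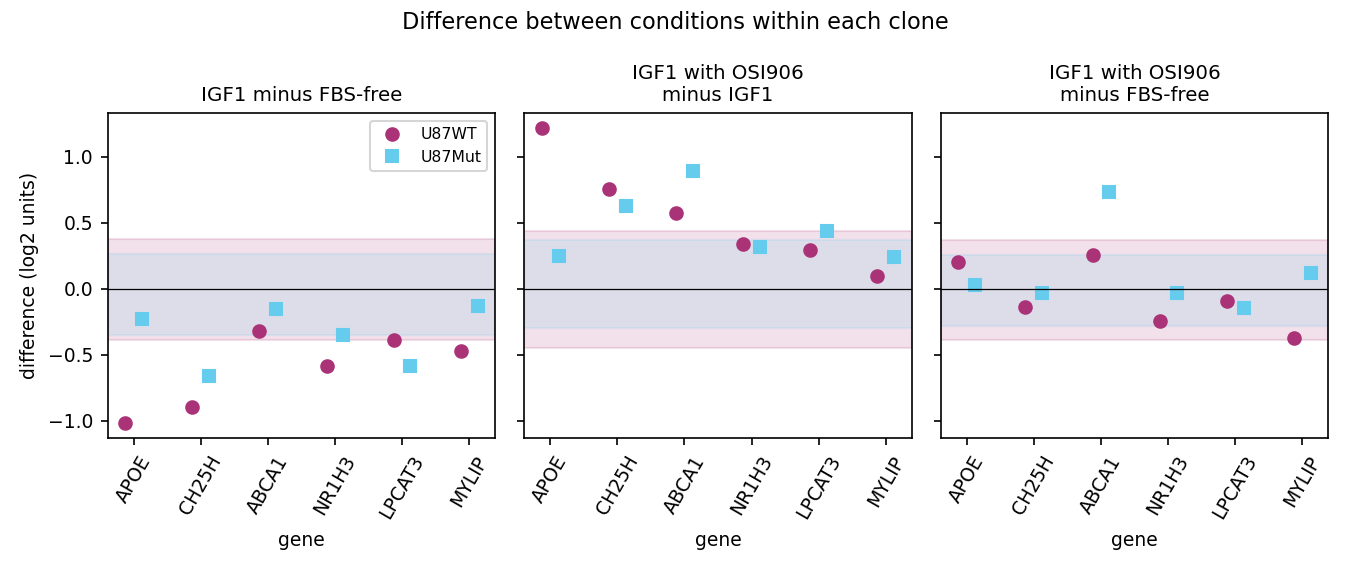
Difference in log2 level between conditions for each gene in U87WT (circles) and U87Mut (squares). Shaded bands span the 5th to 95th percentile of 15340 genes in each clone. In the left and middle panels CH25H in both clones, APOE in U87WT and LPCAT3 in U87Mut lie outside their bands. In the left panel so do NR1H3 and MYLIP in U87WT, with LPCAT3 in U87WT at the edge. In the middle panel ABCA1 lies outside in both clones, and in the right panel ABCA1 in U87Mut is the single point outside, above its band.

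Other genes known to be induced by LXR were taken from a list of 16, of which 15 had a probe and 9 were well above background. SREBF1, the activator of fatty acid synthesis, and SCD, which makes monounsaturated fatty acids, were past the limit toward U87WT on every array, 2 of 9 where 3.09% of all genes were. On every array 0 of 9 were past it toward U87Mut, where 2.4% of all genes were. SREBF1 had log2 ratios of 0.89, 0.67 and 0.60, and SCD 0.89, 1.47 and 0.75. The medians of the 9 genes were 0.32, 0.25 and 0.49. In response to IGF1 none of the 9 was past the limit in U87WT and 1 was in U87Mut, lower, where 1.68% of all genes were. FASN, the fatty acid synthase, was that gene, at -0.51, named after its value was seen. ABCG4, ABCG5, ABCG8, APOC2, CETP and APOD were not well above background, and LPL had no matched probe.

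The retinoid X receptors and coregulators of LXR showed no gene past the limit on every array, of 12 well above background among 13. Their median ratios were -0.08, -0.05 and -0.09. Of 20 genes of oxysterol synthesis, breakdown and sensing, 13 were well above background. NPC2, which carries cholesterol out of lysosomes, was past the limit on every array (0.63, 0.54 and 0.60), 1 of 13 where 3.09% of all genes were, and none was toward U87Mut, where 2.4% were. The medians were -0.02, 0.09 and 0.01. The other enzymes of oxysterol synthesis CYP27A1, CYP46A1 and CYP11A1 and the enzymes of their breakdown CYP7B1 and CYP39A1 were not well above background in every channel. HSD3B7, another enzyme of oxysterol breakdown, was, with ratios of -0.47, 0.06 and 0.16, and is named outside the rule on sizes.

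Lipoprotein receptors that bind APOE or are targets of MYLIP had 5 genes well above background of 7 listed. VLDLR, a receptor of APOE that MYLIP marks for degradation, was past the limit toward U87Mut on every array (-0.90, -0.53 and -0.84), 1 of 5 where 2.4% of all genes were. LRP8, another receptor of APOE, named after its values were seen, had -0.52, -0.33 and -0.25. MYLIP acts on these receptors as proteins, and protein was not measured here.

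Since CH25H is also an interferon-induced gene, 30 interferon-stimulated genes were followed, 27 of them well above background. MX2, OAS2, OASL and USP18 were past the limit toward U87WT on every array, 4 of 27 where 3.09% of all genes were, and 0 toward U87Mut, where 2.4% were. MX2, a restriction factor of viruses, had ratios of 1.02, 1.46 and 1.20, and OASL, a relative of the oligoadenylate synthetases, 0.92, 0.99 and 0.90. The medians of the list were 0.14, 0.22 and 0.23. Of 11 lysophospholipid acyltransferases, the family of enzymes near LPCAT3, 9 were well above background. Of these 9, 0 were past the limit on every array in either direction, and the medians were -0.10, 0.04 and -0.06. LPCAT2 and MBOAT1 were not well above background in every channel. MBOAT1, named after its values were seen, was so in 4 channels. It read 66, 72 and 62 in U87WT and 29, 26.5 and 30 in U87Mut, with log2 ratios of 0.66, 0.66 and 0.62.

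**Figure D4:**
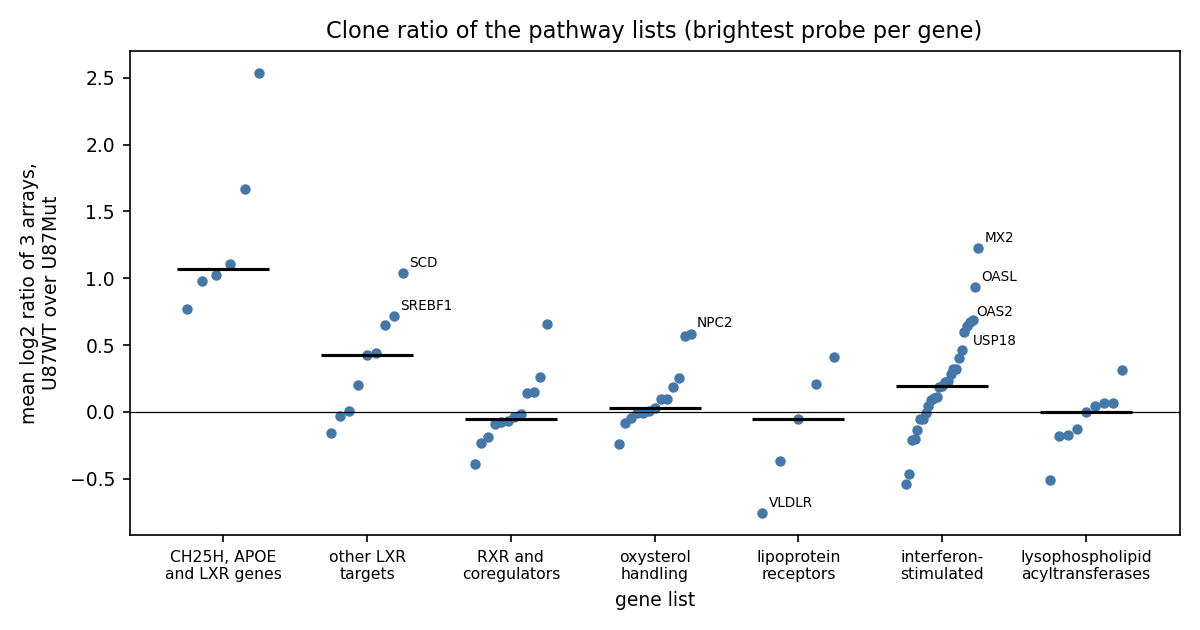
Mean log2 ratio of the 3 arrays, U87WT over U87Mut, for each gene well above background in the pathway lists. Points are genes, lines are medians, and named genes were past 0.5 in one direction on every array, apart from the first list, in which all 6 were. Of the genes plotted, MX2 and SCD are the highest outside the first list and VLDLR is the lowest.

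Cells other than glioma cells could hold such transcripts, since APOE and CH25H are also expressed in macrophages and APOE in astrocytes. Of 10 macrophage and microglia markers 9 had a probe and 4 were well above background in every channel, and AIF1, ITGAM, CX3CR1, C1QA and C1QB were not. PTPRC, CD14 and TYROBP had mean levels of 6.21, 6.46 and 6.33, near the lowest level that was measured as well above background (5.41 to 5.87). CSF1R, the receptor of a macrophage growth factor, was higher in U87WT on every array (0.55, 0.62 and 0.72). The summed brightness of the list over its background, not normalized, ran from 847 to 1110 in U87WT and from 379 to 790.0 in U87Mut. CSF1R held most of that sum, with a brightness of 995 in U87WT and 701 in U87Mut in FBS-free medium. After normalization the median log2 ratios of the 4 markers were 0.13, 0.08 and 0.10. Among 10 markers of astrocytes and glioma, VIM and CD44 were bright (mean log2 levels of 15.61 and 14.25), and GFAP, S100B and ALDH1L1 were not well above background in every channel. SLC1A3, a glutamate transporter of astrocytes, had log2 ratios of 1.78, 1.94 and 1.25, where the medians of its list were 0.30, 0.16 and 0.31. The brightness of its list, not normalized, summed to between 98900 and 114000 in U87WT and between 43200 and 54300 in U87Mut. VIM held most of that sum, with a brightness of 80811 in U87WT and 31596 in U87Mut in FBS-free medium. Of the 4 neuronal markers SNAP25 had ratios of 1.06, 1.02 and 0.91, RBFOX3 -0.31, -0.55 and 0.38, MAP2 0.25, -0.08 and 0.01, and SYT1 -0.28, -0.17 and -0.06, with medians of -0.02, -0.13 and 0.20, and the 4 neuronal markers summed to 2090 to 2560 in U87WT and 1340 to 1890 in U87Mut. The oligodendrocyte list and the endothelial list had none past the limit on any array, with sums of at most 99.5. With IGF1 against FBS-free medium CSF1R differed by -0.48 in U87WT and -0.55 in U87Mut, SLC1A3 by -0.88 and -1.05, and SNAP25 by -0.92 and -0.89. With OSI906 against IGF1 alone these differences were 0.51 and 0.42, 0.53 and 1.23, and 0.46 and 0.58. Other markers did not follow them: with IGF1 MAP2 differed by 0.10 and 0.43, RBFOX3 by 0.07 and 0.31 and VIM by -0.23 and 0.62, and with OSI906 MAP2 differed by -0.85 and -0.95. The markers named here were chosen after their values were seen. The list medians with IGF1 were -0.10 and -0.01 for macrophages and microglia, -0.22 and -0.04 for astrocytes and glioma, and 0.07 and 0.13 for neurons. The part of these markers in the ratios and responses of CH25H, APOE and the LXR genes was not tested, and a different share of cells cannot be told apart from a different amount of RNA per cell.

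The genes most like CH25H, APOE and LPCAT3 over the 6 channels were found by the distance of their centered log2 levels. These levels hold the clone ratio by which the 3 genes were chosen. A near gene therefore has a like ratio by construction, and nothing is read from the larger medians over all genes. Nearest to CH25H was RAB26 (0.14), then RAB7B (0.29) and RSPO3 (0.32), where the median over all genes was 2.24. For APOE they were SBSN (0.56), DCN (0.74) and DMKN (0.84), with a median of 3.26. Of these DCN, the matrix protein decorin, had the same order of ratios as APOE, 2.63, 1.94 and 3.22. For LPCAT3 they were ATP8A1 (0.16), LOC102723834 (0.16) and DPP4 (0.17), with a median of 1.33. Among the listed genes themselves LPCAT3 and NR1H3 were nearest, at 0.23, and APOE and MYLIP farthest, at 2.31.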

How the data were processed

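RNA of U87WT (Cy5) and U87Mut (Cy3) was measured on 3 2-color arrays. The deposited intensity values, per the file headers from Agilent Feature Extraction 12.0.3.1, are the median brightness of each of 62976 spots and of its local background, not normalized. The same software deposited processed intensities and a log10 ratio of red over green. The authors also deposited a table of log2 ratios normalized with limma. The processed intensities and the table of log2 ratios were used for alternatives only, and the log10 ratio was not used.

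In R 4.3.3 with limma 3.58.1 normexp (offset 50) served for background correction and was fitted without spots marked as not uniform. With control spots removed (60901 spots left), arrays were normalized by loess, with weight 0 for outlier spots, and by Aquantile. Spots of a probe were averaged (58201 probes). RefSeq names (GRCh38.p14) were found for 34892 of 36770 probes with a RefSeq transcript, and the brightest probe stood for a gene. A channel level is the mean log2 brightness plus or minus 0.5 of the log2 ratio. No spot of the listed genes was saturated or marked as an outlier.

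All 8 listed genes are described, and from each pathway list up to 4 genes past 0.5 in one direction on every array, by mean size, and the 3 genes nearest to CH25H, APOE and LPCAT3. Genes singled out after their values were seen are named as such, and for markers the defining genes are given. Some genes of the lists are not reported here by name. The genes, lists and tests were chosen with earlier results of these data known. The steps were tested on simulated data. The alternatives were other background corrections, normalizations, limits and probe rules, the deposited table, and leaving out each array.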

Additional observations from a re-analysis of the deposited data

Results flagged for a closer look

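The less bright probe of ABCA1 was 0.57 lower (log2) with IGF1 than in FBS-free medium in U87WT (-0.57) and 0.08 higher in U87Mut. The signs were thus opposite and the difference of the clones was -0.65. The U87Mut value lay within the SD of 0.21 over all genes. With the median in place of loess both clones were lower (-0.29 and -0.19), with a difference of -0.10. The difference was not tested, and the brighter ABCA1 probe was lower in both clones (-0.32 and -0.16). MYLIP with IGF1 and OSI906 against FBS-free medium was -0.37 in U87WT and 0.11 in U87Mut, a difference of -0.49 that was not tested either. Its U87Mut value lay within the SD of 0.17 over all genes. With 1 sample of each clone per condition, an opposite sign rests on a single pair of arrays.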

How the results depend on the processing

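Of 525 recomputed values of the listed genes, 426 stayed within the spread, 99 moved past it and none past the limit reversed, while 13 values within the limit changed sign. Of 159 recomputed counts, 123 stayed within 1.5 times and 36 did not. With the background fitted on all spots, the patch of the IGF1 array included, members lower with IGF1 in U87Mut numbered 1 in place of 2, members higher with OSI906 than with IGF1 5 in U87WT and 1 in U87Mut (3 and 2), members past the limit in the change of the ratio with IGF1 4 (1), and pathway genes higher on every array 3 (7). The IGF1 ratio of MYLIP then was 0.13. The deposited ratios gave 0.13 as well, 0.49 for NR1H3 on that array and 3 pathway genes higher. Pathway genes higher and lower on every array (7 and 1) were 11 and 2 with an offset of 0, 13 and 2 with the scanner's processed signals, 1 and 0 at a limit of 1, and 23 and 7 at a limit of 0.5 SD. Those lower were 0 with the median within arrays or probes averaged per gene, and 2 without the FBS-free array or without the OSI906 array. With the median within arrays 5 members were lower with IGF1 in U87Mut, and 2 each were past the limit in the change of the ratio with IGF1 and with OSI906. Without normalization between arrays 6 were lower with IGF1 in U87WT. At a limit of 1, the members past it were 2 in the ratio with OSI906 and 2 on every array (6), 1 lower with IGF1 in U87WT and 0 in U87Mut, 1 and 0 higher with OSI906, and 0 and 0 in the changes of the ratio. At 0.5 SD the corresponding counts were 6 and 6 lower with IGF1, 5 and 6 higher with OSI906, and 6 and 5 in the changes of the ratio. Causes other than the fewer or more genes that a limit lets past were not tested. No paired analysis was possible because each condition has 1 array and no replicate numbers are shared. Having 1 array per condition limits the precision, and MYLIP and the less bright ABCA1 probe were the dimmest measured.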
